A study of Mus musculus with 24 samples.

Results

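Gasdermin D knockout (GSDMD-KO) and wild-type (WT) retinas were compared after oxygen-induced retinopathy. The comparison holds 6 of the 24 samples of the series: 3 retinas labelled KO-O2 (GSD306, GSD308 and GSD310) and 3 labelled WT-O2 (GSD345, GSD347 and GSD350), chosen by genotype and exposure on the labels. All 6 C57/B6 mouse pups were kept in 75% oxygen from postnatal day 7 to 12, then in room air, and the whole retina was collected on day 18. The KO pups were global knockouts with a short CRISPR deletion within an exon of Gsdmd, so reads of Gsdmd need not be absent. The WT pups were littermates from matings of heterozygous mice, although no label names a litter. The series also holds 6 retinas from pups kept in room air throughout, 3 KO-RA and 3 WT-RA, and 12 lungs. In the paragraphs that follow, values of single retinas are given in the order of the animal numbers above.

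Gasdermin D is cut by inflammatory caspases, and its freed end forms pores in the plasma membrane that release interleukins and can end in pyroptosis, a lytic cell death. In oxygen-induced retinopathy, high oxygen makes the growing retinal capillaries regress. On return to room air the poorly perfused inner retina is hypoxic, stabilises hypoxia-inducible factors, secretes vascular endothelial growth factor and drives sprouting of new vessels towards the vitreous, while Mueller glia turn reactive. The comparison asks how the retinal transcriptome of KO pups differed from that of WT pups at that stage.

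The 6 libraries held 24863300 to 29093000 estimated counts each. Levels are given as CPM, which divides counts by the TMM-adjusted size of the library, and the retina table scales counts by transcript length, so that levels of different genes compare per length. A gene was called when it differed at least 2-fold, with an unadjusted p under 0.05 and a Benjamini-Hochberg adjusted p under 0.1 by the quasi-likelihood test of edgeR. Of 19173 genes tested, 16 were called higher in KO-O2 (0.0835%) and 40 lower (0.209%). The 3 retinas of one group lay outside the range of the other for all 56, which a call with 3 a side nearly requires. Among all tested genes, 10.0% lay apart in this way with higher and 9.86% with lower KO-O2 values. Without a fold threshold, 109 genes (0.569%) were higher and 135 (0.704%) lower at an adjusted p under 0.1. The median log2 fold change of all tested genes was 0.0090.

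Gsdmd itself was measured at 1.11, 1.44 and 2.95 CPM in KO-O2 and 5.70, 2.90 and 3.85 CPM in WT-O2. The difference of -1.17 on the log2 scale (SE 0.63, adjusted p = 0.482) was not called. The library labelled KO-O2 GSD310 lay inside the WT-O2 range and the other KO-O2 retinas below it. In room air the KO retinas had 0.980, 0.774 and 0.636 CPM and the WT retinas 4.08, 0.419 and 2.70 CPM, so that the library labelled WT-RA GSD382 lay below every KO retina. In the lungs, which are other animals, all 6 KO libraries (11.7 to 24.8 CPM) lay below all 6 WT libraries (32.1 to 42.3 CPM).

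Other genes that differed by genotype label in the lung did not settle the labels of the retinas. In KO against WT lungs 2 genes were called lower in both room air and hyperoxia (Gsdmd, at -0.79 in room air, missed the fold threshold there), Lrmda, which is needed for melanosome formation, and mt-Nd3, a mitochondrially encoded subunit of respiratory complex I. Lrmda showed no such order in the retinas, with 3.12, 1.54 and 2.27 CPM in KO-O2 and 3.42, 1.59 and 3.37 CPM in WT-O2. mt-Nd3 stood at 13.4 to 39.9 CPM in the 6 KO lungs against 338 to 449.7 CPM in the WT lungs, and at 162, 653 and 567 CPM in the KO-RA retinas. The KO-O2 retinas, in contrast, had 4745, 5467 and 5525 CPM, beside 4644, 4490.4 and 5407 CPM in WT-O2, so all 3 lay with the WT libraries. Reads of mt-Nd3 may be split with the near-identical predicted gene Gm28438, and this reading is uncertain. Mitochondrial genes pass from the mother and not with the nuclear Gsdmd allele, so mt-Nd3 cannot check the KO labels of littermates.

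A predicted gene, Gm16867, chosen after its values were seen, followed the labels of all 12 retinas. It had 2.19, 3.52 and 4.31 CPM in KO-O2 and 15.9, 17.9 and 17.7 CPM in WT-O2, a log2 fold change of -2.36 (SE 0.27, adjusted p = 0.0167). GSD310 was at the KO level, but the gene was chosen with this retina among the KO-O2 retinas, so it cannot check that label. The KO-RA retinas had 5.27, 4.47 and 4.25 CPM and the WT-RA retinas 10.3, 10.4 and 5.61 CPM, and the KO lungs 0.882 to 1.27 CPM against 2.20 to 10.2 CPM in WT lungs. In the lungs the adjusted p of Gm16867 was 0.0347 in room air and 0.298 in hyperoxia. The locus of Gm16867 is annotated as overlapping another, so its reads may be shared.

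Retinal tissue of the 6 libraries was not equally free of lens. The 19 lens markers, led by the crystallin Cryaa, summed to 470 CPM in GSD310 and to 19.6 to 24.3 CPM in the other 5, with 1 or 2 of the 19 at 0 in those 5 and none in GSD310. Cryaa was at 0.451, 0.889 and 117 CPM in KO-O2 and 0.693, 1.497 and 1.63 CPM in WT-O2. With GSD310 the median log2 fold change of the lens list was 3.23, and without it -0.03, and none of its members passed p under 0.05. The room air libraries ranged up to 116701 CPM of lens markers. Y-linked genes were expressed in 1 KO-O2 retina (GSD308) and in 1 WT-O2 retina (GSD345), and in all 6 room air retinas. Because 3 animals a side carry few degrees of freedom, p-values here rest on a spread estimated over all 12 retinas.

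**Figure D1:**
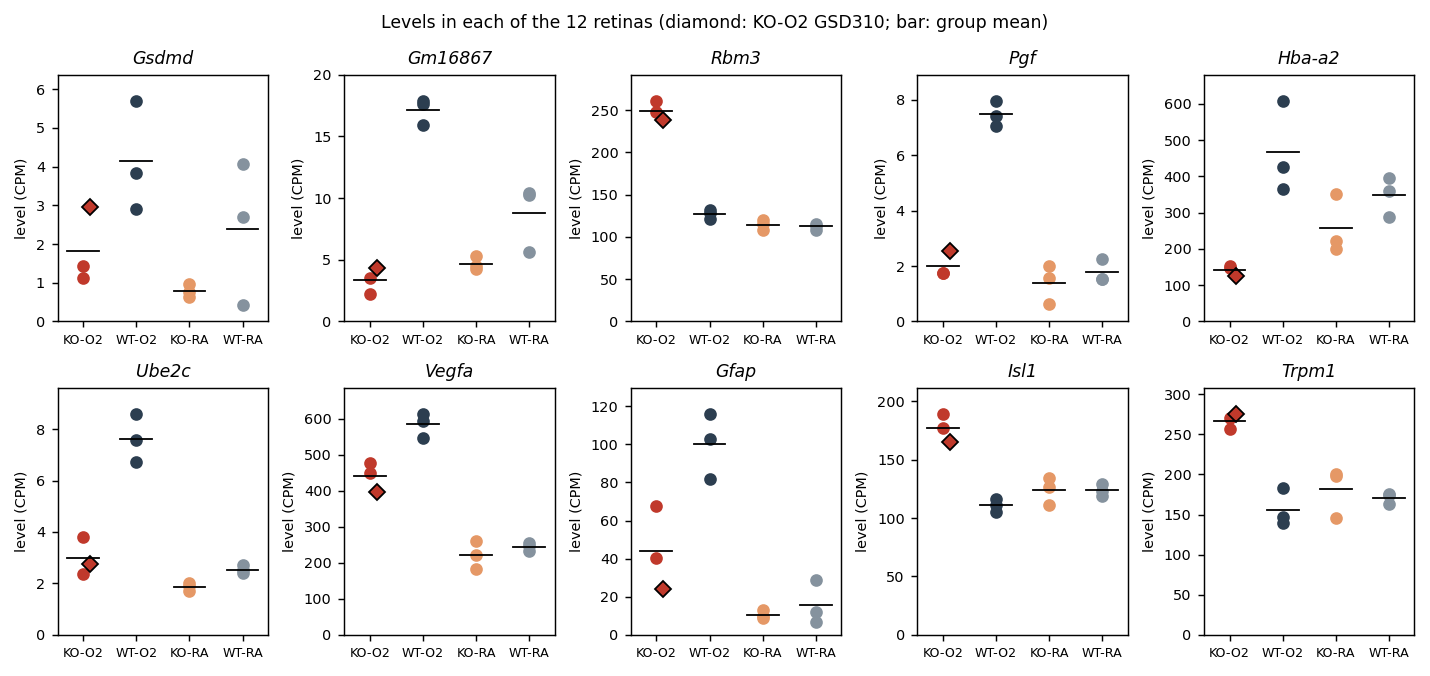
Level in CPM (vertical axis) of 10 genes in each of the 12 retinas, by group (horizontal axis), with a diamond for GSD310 and a bar at each group mean. Gsdmd of GSD310 lies within the WT-O2 range, Rbm3 is near 250 CPM in the KO-O2 retinas alone and at 108 to 131 CPM elsewhere, and Pgf, Hba-a2, Ube2c, Vegfa and Gfap are lower, and Isl1 and Trpm1 higher, in every KO-O2 than in any WT-O2 retina.

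Rbm3, which encodes an RNA-binding protein induced by mild cold and by hypoxia, gave the smallest p of the whole comparison. It was measured at 261, 248 and 238 CPM in KO-O2 and 122, 128 and 131 CPM in WT-O2. All 3 KO-O2 retinas stood at about the same level, GSD310 included, and the 6 room air retinas, at 108 to 119.5 CPM, lay with WT-O2. The log2 fold change was 0.97 (SE 0.07, adjusted p = 0.000556), just under the fold threshold. In the fit of all 12 retinas it was also the single gene whose genotype effect differed between hyperoxia and room air at an adjusted p under 0.1 (0.00522% of the genes tested), by 0.95 on the log2 scale (SE 0.10, adjusted p = 0.0252). That call depended on the fit: no gene was called in this test without GSD308, without any 1 WT-O2 retina or with no scaling, and DESeq2 called 569. Cirbp, the related cold-inducible RNA-binding protein, had 458, 398 and 374 CPM in KO-O2 and 351, 365 and 375 CPM in WT-O2 and was not called (log2 fold change 0.17, SE 0.11, adjusted p = 0.588).

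Among the other 21 tested members of the list of cold, heat-shock and stress genes, most values were below 0. Atf3, a stress-induced transcription factor, fell, with 5.21, 5.13 and 4.07 CPM in KO-O2 and 9.00, 13.6 and 7.45 CPM in WT-O2 (log2 fold change -1.06, SE 0.24, adjusted p = 0.0914). Hsph1, a heat-shock chaperone, was lower without reaching a fold of 2 (-0.43, SE 0.09, adjusted p = 0.0855). Hspa5, the main chaperone of the endoplasmic reticulum, and Xbp1, a transcription factor of its stress response, had log2 fold changes of -0.46 and -0.57 and adjusted p-values of 0.142 and 0.134. In all, 6 of the 22 members had p under 0.05 and lower values, against 6.27% of all tested genes, and 1 had higher values, against 6.31%. The median of the list was -0.20, and -0.13 without GSD310.

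The gene of the angiogenic ligands that fell was Pgf, which encodes placental growth factor, a ligand of the VEGF receptor Flt1. Pgf was measured at 1.74, 1.74 and 2.54 CPM in KO-O2 and 7.43, 7.95 and 7.05 CPM in WT-O2, a log2 fold change of -1.89 (SE 0.35, adjusted p = 0.0557). The groups lay far apart, GSD310 being the highest of the KO-O2 retinas, and the KO-O2 values resembled the 0.642, 1.58 and 1.99 CPM and 1.52, 1.52 and 2.27 CPM of KO-RA and WT-RA. Vegfa, the main hypoxia-driven angiogenic ligand, had 477, 451 and 397 CPM in KO-O2 and 595, 613 and 548 CPM in WT-O2. These groups did not overlap either, but the log2 fold change of -0.41 (SE 0.13, adjusted p = 0.197) was not called.

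Of the 26 genes of VEGF, angiopoietin and Notch signaling, 23 had log2 fold changes below 0, 9 of them at p under 0.05, and none had a higher value at that p. The median of the list was -0.29, and -0.32 without GSD310. The groups did not overlap, with lower KO-O2 values, for 11 of the 26, against 9.86% of all tested genes. Angpt2, a destabilising ligand of the Tie2 receptor made by sprouting endothelium, had 13.6, 10.8 and 5.73 CPM in KO-O2 and 17.5, 23.1 and 13.1 CPM in WT-O2. Dll4, the Notch ligand of tip cells, had 4.37, 3.32 and 2.68 CPM in KO-O2 and 5.503, 6.58 and 5.75 CPM in WT-O2. The groups overlapped for Angpt2 and not for Dll4. The log2 fold changes were -0.83 (SE 0.28) and -0.78 (SE 0.29), and neither passed the adjustment (adjusted p = 0.243 and 0.281). Without GSD310 Angpt2 had -0.55. Jag1, which opposes Dll4 at Notch receptors, Notch1, and Kdr, the main VEGF receptor of endothelium, had -0.44, -0.82 and -0.23, with adjusted p-values of 0.138, 0.327 and 0.377.

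Tip cells are the leading cells of a vessel sprout. Of their 16 listed genes, 14 had values below 0 and 5 of these p under 0.05, among them Apln, the ligand of the apelin receptor, Adm, which encodes adrenomedullin, and Trp53i11. Apln was at 49.0, 36.7 and 34.1 CPM in KO-O2 and 59.9, 80.0 and 46.9 CPM in WT-O2. Adm was at 21.1, 17.5 and 11.9 CPM in KO-O2 and 23.8, 29.2 and 21.5 CPM in WT-O2. The groups overlapped for Apln and not for Adm. In both genes GSD310 was the lowest of the 6 retinas, and all 6 lay well above the room air retinas, which had 3.70 to 8.09 CPM of Apln and 1.59 to 2.52 CPM of Adm. Without GSD310 the log2 fold change of Adm was -0.37 in place of -0.56. The median of the tip cell list was -0.43, and -0.38 without GSD310. Between KO-RA and WT-RA it was -0.27. The summed level overlapped between the groups, at 373 to 469 CPM in KO-O2 and 431 to 570 CPM in WT-O2. Angpt2, Dll4, Adm and Apln are members of both lists.

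The endothelial markers as a whole differed less. Their summed level was 624 to 688 CPM in KO-O2 and 697 to 760.3 CPM in WT-O2, the median log2 fold change of the 20 genes was -0.21, and 6 of them had p under 0.05, all lower. Sox18, an endothelial transcription factor, was lower at an adjusted p of 0.0972, with 11.9, 19.0 and 21.1 CPM in KO-O2 and 37.3, 28.8 and 28.7 CPM in WT-O2 (log2 fold change -0.87, SE 0.20). Sox17, its relative, had -0.79 (adjusted p = 0.148), and the adhesion molecules Esam and Pecam1 had -0.43 and -0.33 (adjusted p = 0.162 and 0.362). In whole-retina RNA, fewer endothelial cells and less RNA per cell cannot be told apart, which holds for every cell type described here.

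Cav1, which encodes caveolin-1, the coat protein of caveolae in vessel walls and Mueller glia, was lower in every KO-O2 retina. Its levels were 45.4, 46.0 and 41.6 CPM in KO-O2 and 69.6, 85.3 and 74.2 CPM in WT-O2 (log2 fold change -0.79, SE 0.11, adjusted p = 0.0211). It was 1 of 2 among the 18 genes of norrin signaling and the blood-retina barrier with p under 0.05, the other being Sox17, and the median of that list was -0.08. Of the 15 markers of pericytes and smooth muscle, 14 had values below 0 (median -0.42, and -0.25 without GSD310). Their sum was 759 to 940.8 CPM in KO-O2 and 1053 to 1258 CPM in WT-O2. Most of this sum was Vtn, which encodes vitronectin. Vtn had 655, 589 and 568 CPM in KO-O2 and 884, 690 and 843 CPM in WT-O2. The gap between the sums therefore rests largely on 1 gene, and a sum without Vtn was not tested. Cspg4, the NG2 proteoglycan of pericytes, had -0.70 and Vtn -0.42, at adjusted p-values of 0.231 and 0.194. Neither passed.

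Genes of red blood cells had the lowest median of the lists, -1.14, and -1.03 without GSD310. Of the 9 tested erythroid genes, 4 were called lower, against 0.209% of all tested genes, and none higher. They are the globin genes Hba-a1, Hba-a2, Hbb-bs and Hbb-bt. Of the 9, 3 lay above 0, among them Fech, the last enzyme of heme synthesis in all cells, which had a log2 fold change of 0.28 (adjusted p = 0.355), an unadjusted p under 0.05 and no overlap of the groups. Hba-a2 had 153, 146 and 125 CPM in KO-O2 and 366, 608 and 426 CPM in WT-O2, and Hbb-bs 129, 107 and 123 CPM in KO-O2 and 291, 448 and 324 CPM in WT-O2. The log2 fold changes of the 4 genes ranged from -1.75 to -1.57, with adjusted p-values of 0.0211 to 0.0964. The KO-O2 retinas lay below all 9 others for Hba-a2, whose room air values were 200.1 to 395 CPM. Alas2, the heme-synthesis enzyme of red cell precursors, had -1.14 (SE 0.31) but did not pass the adjustment (adjusted p = 0.145). The members of each globin pair are near-identical copies between which reads can be split, so they count as 1 observation for alpha and 1 for beta globin. Erythroid markers summed to 463 to 527.6 CPM in KO-O2 and 1070.2 to 1635 CPM in WT-O2, so that the ranges did not overlap.

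Most genes of cell division had lower values in KO-O2. Of 29 mitotic cell cycle genes, 27 had log2 fold changes below 0, 12 of them at p under 0.05 (against 6.27% of all tested genes) and none higher at that p. The groups did not overlap, with lower KO-O2 values, for 17 (against 9.86%), and with higher values for 1, Bub1b, a kinase of the spindle checkpoint. The summed level of the list overlapped between the groups, at 180.5 to 243 CPM in KO-O2 and 231 to 278 CPM in WT-O2. The median was -0.72, and -0.54 without GSD310. Ccnb2, a cyclin that activates Cdk1 at mitotic entry, fell, with 1.25, 0.855 and 0.814 CPM in KO-O2 and 2.08, 3.34 and 3.20 CPM in WT-O2 (log2 fold change -1.56, SE 0.34, adjusted p = 0.0855). Plk1, a mitotic kinase, was lower with -0.94 (adjusted p = 0.0954). Outside the list, Ube2c, which feeds ubiquitin to the anaphase-promoting complex, fell by more than 2-fold, with 3.82, 2.36 and 2.75 CPM in KO-O2 and 7.58, 6.70 and 8.58 CPM in WT-O2 (log2 fold change -1.36, SE 0.21, adjusted p = 0.0269). In room air Ccnb2 was at 0.636 to 1.16 CPM, Ube2c at 1.69 to 2.70 CPM and Plk1 at 3.97 to 6.22 CPM, so that WT-O2 stood above room air for the first 2 of these genes.

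Of the called genes outside the list, chosen here after their values were seen, Cenpm, a centromere protein, had 4.03, 2.87 and 3.19 CPM in KO-O2 and 6.16, 6.86 and 8.92 CPM in WT-O2. Pclaf, a partner of the replication clamp, had 3.85, 2.36 and 2.10 CPM in KO-O2 and 5.85, 5.93 and 7.11 CPM in WT-O2. Their log2 fold changes were -1.12 (adjusted p = 0.0395) and -1.18 (adjusted p = 0.0716). The histone genes Hist1h1e and Hist1h2be had -1.72 and -1.07 (adjusted p = 0.0211 and 0.0524), and Diaph3, an actin-nucleating formin needed in cytokinesis, -1.03 (adjusted p = 0.056). The room air retinas, at 4.57 to 6.38 CPM of Cenpm, 3.84 to 4.57 CPM of Hist1h1e, 5.38 to 6.75 CPM of Hist1h2be and 4.54 to 6.02 CPM of Diaph3, lay above all KO-O2 retinas and near WT-O2, unlike those of Ccnb2 and Ube2c. Mki67 and Top2a, the usual proliferation markers, were scarce. Mki67 was at 0.694, 0.855 and 0.475 CPM in KO-O2 and 2.69, 1.34 and 2.55 CPM in WT-O2. Top2a was at 2.39, 1.40 and 3.05 CPM in KO-O2 and 6.70, 4.68 and 6.501 CPM in WT-O2. In both the KO-O2 retinas lay below all WT-O2 retinas, but the adjusted p-values of 0.282 and 0.271 did not pass.

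Genes transcribed late in the cell cycle often carry a cell cycle homology element close to the start site, whose core reads TTTGAA in most genes and, in a variant of it, TTCGAA in others. Boxes with the letters CCAAT often lie upstream of it. The promoters of 4 called genes named above are shown for that reason, from 120 bases before to 20 after the RefSeq start site (GRCm38.p6), 5′ to 3′ on the gene's strand, with every element of both forms and every CCAAT box in capitals on either strand, so that the box reads ATTGG where it lies on the other strand.
Ube2c (chr2:164769809-164769948, plus strand): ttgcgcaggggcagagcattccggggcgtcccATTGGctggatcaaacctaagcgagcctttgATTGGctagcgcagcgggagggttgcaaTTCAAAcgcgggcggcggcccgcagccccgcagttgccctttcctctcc
Ccnb2 (chr9:70421535-70421674, minus strand): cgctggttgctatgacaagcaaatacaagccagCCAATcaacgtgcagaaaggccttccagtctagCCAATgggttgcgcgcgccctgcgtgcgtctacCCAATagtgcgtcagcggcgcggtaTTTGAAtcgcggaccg
Cenpm (chr15:82244317-82244456, minus strand): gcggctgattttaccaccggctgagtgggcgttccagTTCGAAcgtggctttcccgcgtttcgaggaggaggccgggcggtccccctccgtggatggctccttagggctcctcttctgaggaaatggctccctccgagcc
Pclaf (chr9:65890203-65890342, plus strand): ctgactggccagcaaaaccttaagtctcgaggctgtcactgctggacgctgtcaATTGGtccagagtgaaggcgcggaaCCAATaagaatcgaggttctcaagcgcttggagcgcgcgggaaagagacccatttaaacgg
Ube2c and Ccnb2 hold 1 TTTGAA each in this stretch, on the other strand in Ube2c, with 2 and 3 CCAAT boxes, Cenpm holds 1 TTCGAA, and Pclaf holds 2 CCAAT boxes and no such element. Over the window of 250 bases before to 50 after the start, 14 of the 24 mitotic list promoters found (58.3%) held an element of either form and also a CCAAT box, against 7.52% of all 32851 promoters and 5.85% of those of tested genes. CCAAT alone was in 87.5% of the list's promoters and 37.4% of all. A match of these letters describes the promoter and is not a measured binding site.

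**Figure D2:**
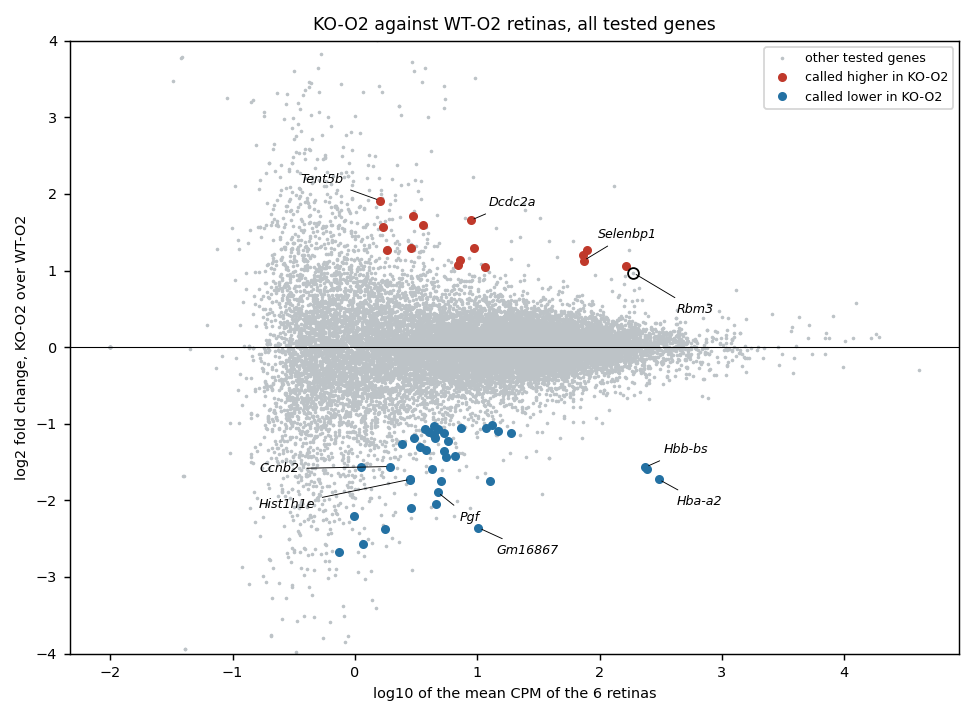
Log2 fold change of KO-O2 over WT-O2 (vertical axis) against log10 of the mean CPM of the 6 retinas (horizontal axis) for all tested genes, with the genes called higher in red and lower in blue, Rbm3 ringed, and genes beyond 4 in either direction not drawn. The called falls outnumber the called rises by 40 to 16, and the globin genes are the most abundant of the falls.

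Reactive gliosis in retinopathy shows as a rise of intermediate filaments and acute-phase genes in Mueller glia and astrocytes. Of 24 gliosis genes, 19 had values below 0 and 6 of these p under 0.05, none of which passed the adjustment. Gfap, the glial intermediate filament, was measured at 40.1, 67.7 and 23.8 CPM in KO-O2 and 82.0, 116 and 103 CPM in WT-O2. Every KO-O2 retina lay below every WT-O2 retina, and GSD306 and GSD308 lay above the room air range of 6.52 to 28.9 CPM while GSD310, the lowest of the 6, lay within it. The log2 fold change of -1.19 had an SE of 0.50 (adjusted p = 0.356). Nes, the filament nestin, had 6.70, 8.24 and 5.05 CPM in KO-O2 and 10.9, 16.3 and 9.84 CPM in WT-O2. Cebpd, an acute-phase transcription factor, had 13.4, 19.4 and 9.23 CPM in KO-O2 and 20.3, 45.2 and 27.7 CPM in WT-O2. Timp1, an inhibitor of matrix proteases, had 4.03, 5.03 and 3.77 CPM in KO-O2 and 5.23, 17.8 and 10.6 CPM in WT-O2, and GSD347 was the highest retina for all 3 of Nes, Cebpd and Timp1. The median of the list was -0.58, and -0.46 without GSD310. The same median between KO-RA and WT-RA was -0.27. The summed level of the list overlapped between the groups, at 1357 to 2093 CPM in KO-O2 and 1536 to 2449 CPM in WT-O2. Of the 16 Mueller glia markers, 10 lay above 0 and 6 below, 2 were higher and 1 lower at p under 0.05, and none passed the adjustment. Their sum was 4423 to 4694 CPM in KO-O2 and 3549 to 4066 CPM in WT-O2, with a median of 0.12, and 0.06 without GSD310. Within them, Car14, a membrane carbonic anhydrase, had 0.92 (adjusted p = 0.101) and Sox9, a glial transcription factor, -0.76 (adjusted p = 0.152).

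Genes induced by hypoxia, and glycolysis enzymes among them, leaned the same way with small sizes. Of 33, 9 were lower and 2 higher at p under 0.05, none passed the adjustment, and the median was -0.15. Egln3, an oxygen-sensing hydroxylase induced by HIF-1, had 8.26, 12.3 and 7.26 CPM in KO-O2 and 15.1, 16.7 and 13.6 CPM in WT-O2 (log2 fold change -0.70, adjusted p = 0.188). Pfkfb3, a driver of glycolysis in sprouting endothelium, had -0.38, and the glycolytic enzymes Hk2 and Aldoa -0.47 and -0.34.

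Among inflammatory signals, no list had a called member except that of the interferon-stimulated genes. Ifi27 fell, with 7.46, 7.76 and 7.80 CPM in KO-O2 and 19.9, 13.1 and 14.9 CPM in WT-O2 (log2 fold change -1.06, SE 0.23, adjusted p = 0.0855), and was the 1 called gene of 34. Ifitm1, an interferon-induced membrane protein outside that list, also fell, with 2.39, 3.69 and 2.88 CPM in KO-O2 and 7.47, 8.61 and 8.13 CPM in WT-O2 (-1.43, SE 0.25, adjusted p = 0.0395). The median of the 34 was -0.10, and it was -0.03 without GSD310. Of 25 IL-6 and JAK-STAT genes, 5 were lower and 1 higher at p under 0.05. Jak3 and Cish, a kinase and a feedback inhibitor of the pathway, had -0.94 and -0.80 (adjusted p = 0.123 and 0.153).

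In TNF and NF-kB signaling, 22 of 30 genes had values below 0, 4 with p under 0.05, and the median was -0.24. The 1 member to pass the adjustment lay on the other side. Nfkbia, the inhibitor that holds NF-kB in the cytoplasm, was higher, with 49.5, 55.2 and 61.4 CPM in KO-O2 and 43.6, 42.8 and 38.2 CPM in WT-O2 (log2 fold change 0.42, SE 0.09, adjusted p = 0.0902). Tnfaip3, another feedback inhibitor, had -0.39, Nfkb2, a subunit of the alternative pathway, -0.71, and Bcl3, its nuclear partner, -1.64, at adjusted p-values of 0.128, 0.243 and 0.245. Bcl3 spread widely, with 5.41, 9.54 and 1.80 CPM in KO-O2 and 9.97, 21.5 and 20.7 CPM in WT-O2, GSD310 lowest.

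Microglia and macrophage markers gave 1 gene of 22 with p under 0.05 and a median of -0.21, and -0.11 without GSD310. Their sum was 194 to 256.4 CPM in KO-O2 and 213 to 307 CPM in WT-O2, and the ranges overlapped. Ccr2, the receptor of recruited monocytes, and C5ar1, the receptor of the complement fragment C5a, were near the limit of detection. Ccr2 had 0.139, 0.137 and 0.305 CPM in KO-O2 and 0.770, 0.780 and 0.817 CPM in WT-O2, and C5ar1 0.278, 0.342 and 0.136 CPM in KO-O2 and 1.08, 1.06 and 1.33 CPM in WT-O2. Both sets of KO-O2 retinas lay below the WT-O2 retinas, with adjusted p-values of 0.242 and 0.257. Neutrophil and lymphocyte markers summed to 8.18 to 9.52 CPM in KO-O2 and 10.2 to 12.9 CPM in WT-O2, ranges that did not overlap, and no member had p under 0.05.

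Pyroptosis and inflammasome genes, Gsdmd aside, held no difference that could be detected at this depth. Of 20 listed genes 13 were abundant enough to test, none had p under 0.05 and the median was -0.04. Casp1, the caspase that cuts gasdermin D, was at 0.174, 0.342 and 0.170 CPM in KO-O2 and 0.346, 0.468 and 0.306 CPM in WT-O2, with a log2 fold change of -0.70 and an SE of 0.76. Of 29 apoptosis and necroptosis genes, 4 were lower and 1 higher at p under 0.05 and none passed the adjustment. Ripk1 and Fadd, which carry death receptor signals, had -0.63 and -0.56, and Bbc3, a p53-induced killer of the BCL2 family, 0.58, with adjusted p-values of 0.316, 0.28 and 0.281.

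For the genes that the study picked for retina besides Gsdmd, chosen on samples of these groups, the sizes differed widely. By qRT-PCR, a separate assay, the study reported each of them as lower in hyperoxia-exposed KO than in hyperoxia-exposed WT retinas. The values below are from sequencing only and do not test that assay. Edn2, an endothelin induced in stressed photoreceptors and glia, had 11.3, 26.4 and 3.15 CPM in KO-O2 and 32.9, 27.8 and 49.5 CPM in WT-O2 (log2 fold change -1.43, SE 0.90, adjusted p = 0.576). The groups did not overlap, but the KO-O2 retinas differed among themselves by several fold. Stat3 had 60.1, 79.4 and 50.8 CPM in KO-O2 and 68.9, 137 and 71.6 CPM in WT-O2 (-0.55, SE 0.24, adjusted p = 0.373), with GSD347 far above the others and the rest of the groups overlapping. Birc3, an inhibitor of apoptosis induced by NF-kB, had -0.70 (SE 0.29, adjusted p = 0.344), and Birc5, which encodes survivin, -0.76 (SE 0.39, adjusted p = 0.464). Nlrc3, a negative regulator of innate signaling, and Pdgfrb, the pericyte receptor for PDGF-B, had -0.04 (SE 0.25) and -0.05 (SE 0.15). None of the 6 was called.

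Several lists of neuronal genes had medians above 0. Bipolar cells relay photoreceptor signals to ganglion cells, and of their 17 markers 15 had values above 0, 6 with p under 0.05, and none was lower at that p. Isl1, a transcription factor of ON bipolar cells, was higher in every KO-O2 retina, with 177, 189 and 165 CPM in KO-O2 and 116, 105 and 111 CPM in WT-O2 (log2 fold change 0.68, SE 0.09, adjusted p = 0.0211). Trpm1, the transduction channel of ON bipolar cells, had 257, 269.9 and 275 CPM in KO-O2 and 147, 183 and 139 CPM in WT-O2 (0.77, SE 0.13, adjusted p = 0.0395). Neither reached a fold of 2. Vsx1, a bipolar transcription factor, had 0.65 (adjusted p = 0.115). The sum of the bipolar markers was 2579 to 2638 CPM in KO-O2 and 1996 to 2179 CPM in WT-O2, and the median of the list was 0.25, and 0.22 without GSD310. Trpm1 is also on the list of pigment epithelium and melanocyte markers, of which no other member passed p under 0.05.

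All 8 horizontal cell markers had values above 0 (median 0.27). The 1 that passed the adjustment was Prox1, a transcription factor. It had 59.1, 72.3 and 81.1 CPM in KO-O2 and 48.9, 53.01 and 46.9 CPM in WT-O2 (log2 fold change 0.51, adjusted p = 0.0915). Of 35 synaptic genes, 8 were higher and 1 lower at p under 0.05 (median 0.12). Gria2, an AMPA receptor subunit, was higher at an adjusted p of 0.0951 (log2 fold change 0.35, SE 0.08), and it differed by 0.39 on the log2 scale in room air (SE 0.08). Rims2, a scaffold of the release site, had 0.37, while Dlg4, the postsynaptic scaffold PSD-95, had -0.66, at adjusted p-values of 0.119 and 0.141. Retinal ganglion cell markers (median -0.07, sum 1117 to 1257 against 1174 to 1325 CPM) and the neurofilament and axon list (median -0.04, and -0.08 without GSD310, no member of 13 with p under 0.05) overlapped between the groups in their sums. Of the 17 ganglion cell markers 14 lay below 0, 2 of them with p under 0.05.

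Rod genes lay on both sides of 0 by small amounts, 9 of 26 above and 17 below, with a median of -0.14 (-0.13 without GSD310). At p under 0.05, 4 were higher and 3 lower, with no called member. Their sum was 72096 to 76786 CPM in KO-O2 and 77667 to 88879 CPM in WT-O2, ranges that did not overlap. Gnat1, the rod transducin, had -0.26, whereas Sag, which encodes rod arrestin, and Nr2e3, a rod transcription factor, had 0.39 and 0.38, all at adjusted p-values of 0.172 to 0.338. In the visual cycle Rdh11, a retinol dehydrogenase, was lower at an adjusted p of 0.0476, with 25.7, 22.7 and 25.6 CPM in KO-O2 and 36.6, 34.6 and 37.9 CPM in WT-O2 (log2 fold change -0.56, SE 0.10). It was the 1 of 18 genes of that list with p under 0.05.

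Clock genes, which cycle in the retina with the hour of collection, were higher for 7 and lower for 1 of 18 at p under 0.05 (median 0.21, and 0.13 without GSD310). Ciart, a repressor of the clock, had 34.5, 62.2 and 47.4 CPM in KO-O2 and 30.1, 26.3 and 28.8 CPM in WT-O2 (log2 fold change 0.76, adjusted p = 0.122). Per1 and Cry2, clock repressors, had 0.48 and 0.34 (adjusted p = 0.393 and 0.248). The hour of collection is not given in the labels. Of the 13 mitochondrially encoded genes, 12 had values above 0 and 4 p under 0.05 (median 0.13), none passing the adjustment.

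**Figure D3:**
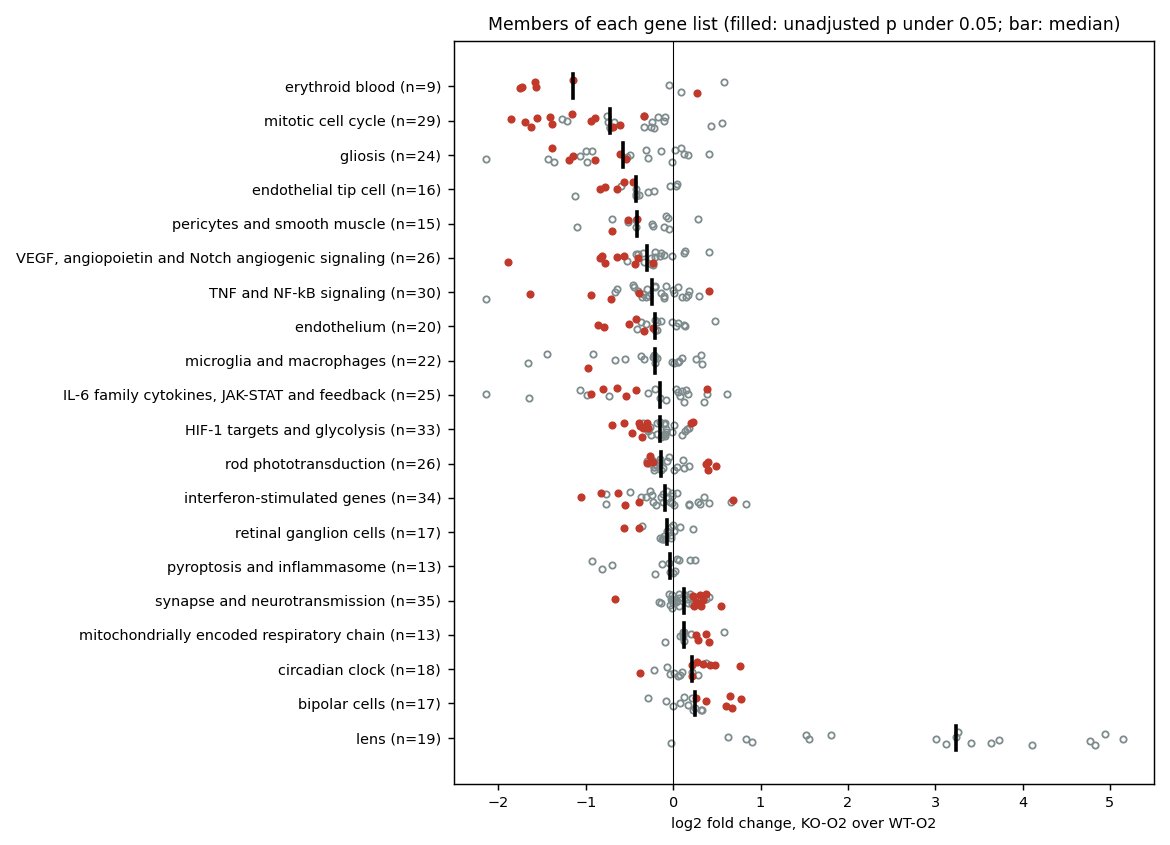
Log2 fold change of KO-O2 over WT-O2 (horizontal axis) of every tested member of 20 gene lists (vertical axis), with filled points for an unadjusted p under 0.05 and a bar at each median. The medians run from -1.14 for erythroid markers and -0.72 for mitotic genes to 0.25 for bipolar markers, and the lens list, at 3.23, has a median of -0.03 without GSD310.

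None of the 16 genes that rose belongs to a list described above. Tent5b, a poly(A) polymerase, had 1.42, 3.56 and 2.61 CPM in KO-O2 and 0.500, 0.686 and 0.817 CPM in WT-O2 (log2 fold change 1.91, SE 0.45, adjusted p = 0.099). Etnppl, a phospholyase that is a marker of astrocytes, had 5.73, 4.51 and 3.56 CPM in KO-O2 and 1.35, 1.34 and 1.498 CPM in WT-O2 (1.72, SE 0.26, adjusted p = 0.0275). Here the WT-O2 retinas were the low ones, and the room air retinas had 3.77 to 6.84 CPM. Dcdc2a, a microtubule-binding protein of the doublecortin family, had 12.3, 11.4 and 16.6 CPM in KO-O2 and 5.96, 3.87 and 2.96 CPM in WT-O2 (1.66, SE 0.24, adjusted p = 0.0269). Cnot8, a catalytic subunit of the CCR4-NOT deadenylase that shortens poly(A) tails, rose from 48.2, 46.6 and 38.1 CPM to 82.3, 123 and 101 CPM (1.20, SE 0.15, adjusted p = 0.0211), and the room air retinas resembled WT-O2. Glp2r, the receptor of glucagon-like peptide 2, had 86.7, 142 and 108 CPM in KO-O2 and 45.9, 47.4 and 46.4 CPM in WT-O2 (1.27, adjusted p = 0.0454), again above the room air retinas, which had 33.3 to 61.0 CPM.

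Folh1, a peptidase that splits the neuropeptide NAAG, had 14.5, 11.1 and 14.6 CPM in KO-O2 and 7.20, 4.68 and 4.49 CPM in WT-O2 (log2 fold change 1.30, adjusted p = 0.0576), and Slc13a5, a citrate transporter, 9.58, 8.89 and 11.3 CPM in KO-O2 and 5.23, 3.87 and 4.39 CPM in WT-O2 (1.14, adjusted p = 0.0285). Selenbp1, a selenium-binding methanethiol oxidase, had 104.2, 96.6 and 103.8 CPM in KO-O2 and 42.9, 47.0 and 49.4 CPM in WT-O2 (1.13, adjusted p = 0.0855). In room air it had 16.5, 29.8 and 33.5 CPM in KO-RA and 52.6, 31.6 and 54.2 CPM in WT-RA, where the groups overlapped (log2 difference -0.79, SE 0.24). The remaining named rises were Rilp, an effector of late endosomes, Ttll9, a tubulin-modifying enzyme, the transcription factors Mycl and Neurod6, the latter a marker of a class of amacrine cells, Trmt9b, Dynlt1b and Tmem255b, with log2 fold changes of 1.05 to 1.59 and adjusted p-values of 0.0237 to 0.0964. Dynlt1b belongs to a cluster of near-identical copies, so its value is uncertain.

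Falls outside the lists reached similar sizes. Bst1, an ADP-ribosyl cyclase of bone marrow stroma and myeloid cells, had 1.74, 0.581 and 1.59 CPM in KO-O2 and 3.58, 4.68 and 4.80 CPM in WT-O2 (log2 fold change -1.74, SE 0.39, adjusted p = 0.0951). Tpbg, a membrane glycoprotein found in some bipolar and amacrine cells, had 7.98, 8.68 and 9.74 CPM in KO-O2 and 19.5, 16.2 and 17.8 CPM in WT-O2 (-1.02, SE 0.14, adjusted p = 0.0211), and the room air retinas lay at the WT-O2 level. Adam8, a membrane protease, had 1.80, 2.70 and 1.97 CPM in KO-O2 and 4.58, 5.83 and 5.96 CPM in WT-O2 (-1.34, adjusted p = 0.0285). Dok3, an adaptor of immune receptors, had 4.23, 3.18 and 3.36 CPM in KO-O2 and 10.3, 9.89 and 8.78 CPM in WT-O2 (-1.42, adjusted p = 0.0269). Ahrr, which represses the aryl hydrocarbon receptor, had -1.23 (adjusted p = 0.0395). Arl9, Tcf24, Lrrk1, Rcn3, Tubd1, Fndc8 and Bmp15 were the other named falls, with -1.59 to -1.07 and adjusted p-values of 0.0454 to 0.0974. Of the 56 called genes, 14 carry the names of predicted genes, Rik clones or pseudogenes, Gm16867 among them, and 3 of the 14 were listed at 0 in all retinas of one group.

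The same genotype difference in room air gave 1 called gene, mt-Nd3 (0.00522% of the genes tested). Of the 56 genes called in hyperoxia, 30 had the same sign in room air and 5 had p under 0.05 there, against 12.7% of all tested genes. Pgf, Ccnb2 and Isl1 differed between KO-RA and WT-RA by -0.34 (SE 0.36), -0.35 (SE 0.34) and 0.00 (SE 0.09) on the log2 scale. For these genes the difference between the exposures was not called after adjustment.

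Because Gsdmd in GSD310 went against its label, the comparison was refitted without that retina. All 56 called genes kept their sign, which leaving out 1 retina could hardly turn because their groups did not overlap. They had been chosen with GSD310 included. Of them, 51 still differed by 2-fold or more and all 56 had p under 0.05. In the refit only 3 genes were called higher and 3 lower. Of the 56, 5 were called again: Etnppl (1.87), Cnot8 (1.21), Tpbg (-1.10), Gm11957 and Gm16867, the last 2 predicted genes. Rbm3 had a log2 fold change of 1.00 (adjusted p = 0.00376) without GSD310, and Pgf -2.10 (adjusted p = 0.145). In the fit of only these retinas, without GSD310, edgeR called no gene at all, with 1934 genes at an unadjusted p under 0.05. A loss of calls followed from leaving out other retinas too: 14 genes were called without GSD308, and 13 to 19 without any 1 WT-O2 retina, while 83 were called without GSD306.

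**Figure D4:**
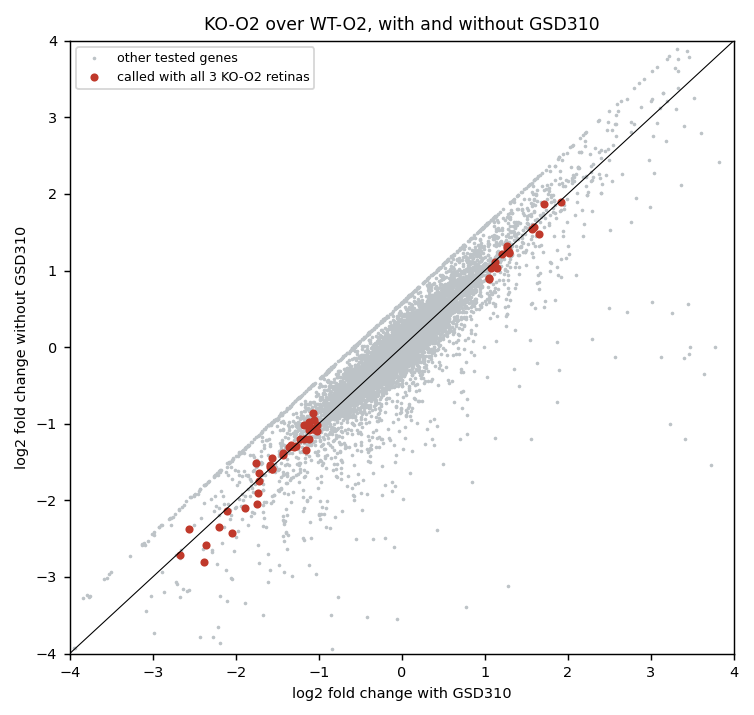
Log2 fold change of KO-O2 over WT-O2 without GSD310 (vertical axis) against that with all 3 KO-O2 retinas (horizontal axis), for all tested genes within 4 in either direction, with the called genes in red and a line of equality. The called genes drawn lie close to the line, and Pgf moves from -1.89 to -2.10. They keep their sign, which could hardly turn because their groups do not overlap.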

How the data were processed

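Per the labels and the study's methods, the authors sequenced RNA of whole retinas and quantified reads with kallisto (mm10 in the submitters' processing notes, another mouse build in the study's methods) and summed transcripts to genes with tximport. The deposited values are estimated counts. In the retina table the smallest values fall with transcript length (median 5.84 for genes of 400 to 600 bases and 0.833 for 2000 to 4000), while those of the lung table are 1, so the retina counts were scaled by length and overstate the reads of short genes. They were rounded and tested with the quasi-likelihood test of edgeR 4.0.16 (R 4.3.3) over all 12 retinas, 1 term per group, with TMM scaling, filterByExpr, and Benjamini-Hochberg adjustment. SE is the fold change divided by the square root of F. DESeq2 1.42.0 and limma 3.58.1 served as alternatives. The edgeR fit was tested on simulated data. The p-values measure the spread between animals. Group names come from the labels. The exposure days come from the study's methods. The labels do not say which pups shared a litter. The 6 comparison members and all gene lists were chosen with earlier results of these data known. Named genes are Gsdmd, the genes the study named for retina, the 10 largest rises and falls with a mean of at least 1 CPM and no overlap, and up to 4 members of each list by p, with further called genes named after their values were seen. Symbols were matched for 35968 of 36595 gene identifiers. Promoters are from RefSeq (GRCm38.p6). Some genes are not reported here.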

Additional observations from a re-analysis of the deposited data

Results flagged for a closer look

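Rbm3 was the 1 gene whose KO-WT difference in hyperoxia differed from that in room air by the interaction test of edgeR, by 0.95 on the log2 scale (SE 0.10, adjusted p = 0.0252). All 3 KO-O2 retinas lay above the other 9.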

How the results depend on the processing

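All 56 called genes kept their sign in every alternative in which they were fitted. They were chosen on these same retinas and their groups did not overlap, so a sign could hardly turn and this is no test of them. Against 16 genes higher and 40 lower, DESeq2 called 63 and 111, no fold threshold gave 109 and 135, a fold of 1.5 gave 62 and 94, and an adjusted p under 0.05 gave 7 and 17. Leaving out 1 retina gave 3 to 26 higher and 3 to 57 lower, the fewest without GSD310 and the most without GSD306. Among alternatives chosen after seeing the data, the fit without the 3 room air retinas with lens signal gave 10 and 17, and the fit of only the compared retinas without GSD310 gave 0 and 0. For the difference between exposures, edgeR called 1 gene (2035 at an unadjusted p under 0.05), DESeq2 569, the length-restored counts (chosen after seeing the data) 25, no scaling 0, the fit without the lens-high retinas 0, and leaving out 1 retina 0 to 340, with 340 without GSD306. The cause was not tested. The uncalled log2 fold changes that turned sign when 1 retina was left out were those of Nlrc3 (range -0.19 to 0.087, above 0 without GSD308 or GSD347), Pdgfrb (-0.21 to 0.097, above 0 without GSD306, GSD310 or GSD347) and Cryaa (-0.93 without GSD310, in both fits, to 5.52 without GSD306). No paired analysis was possible because the columns carry animal numbers and no replicate numbers shared between groups. Below about 1 CPM the spread between retinas limits what 3 a side can show.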
